A study of Mus musculus with 7 samples.

Results

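The genes described here are 33 ribosome biogenesis genes that the transcription factor MYC is known to drive. They were taken by symbol from a list, and each matched once among the 55357 features of the deposited count matrices. The matrices come from mouse liver, dissociated 2 weeks after hydrodynamic tail vein injection of plasmids for Nras and C-myc. The injection forces plasmid DNA into hepatocytes, where these oncogenes start hepatocellular carcinoma. The 3 control samples received Nras and C-myc, and the 4 treated samples received Nras, C-myc and a plasmid for IL-2/CD25 (IL-2 is a T cell growth factor and CD25 a chain of its receptor). All 7 samples are labelled HCC tissue and carry one batch label, the mouse strain, sex and age are not given in the labels, and no sample without the oncogene plasmids was used here. The labels do not say whether each sample is 1 animal, so p-values of treated against control measure the spread between samples. Where cells of the same samples are compared with the sample as a block, p-values measure the spread of the within-sample difference. Libraries count 3′ tags, which cannot separate plasmid Myc or Nras from the mouse genes.

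Ribosomes are built in the nucleolus. RNA polymerase I makes one long precursor RNA, small nucleolar ribonucleoproteins mark and cut it, helicases and scaffold proteins fold it with ribosomal proteins, and separate assembly lines release the small and the large subunit. MYC raises transcription of genes at each of these steps, and enlarged nucleoli are a known sign of high MYC activity.

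MYC-MAX dimers bind the E-box, and the canonical sequence CACGTG (a palindrome, so 1 search covers both strands) was looked for in RefSeq promoter windows of 300 bases, from 250 before to 50 after the start of each gene (build GRCm38.p6). Of the 28 members with a window, 5 held it (17.9%), against 14 of 64 other ribosome biogenesis genes (21.9%) and 8.09% of the 27025 genes in the table. Bop1, Rrs1, Rrp12, Fbl and Npm1 had no window. The 5 sites are shown with up to 10 flanking bases on each side, the E-box in capitals, because these are the members whose start carries the canonical MYC motif. The plus strand of the genome is the gene strand in each, and positions count the start as 1.
Nop2 (chr6:125131813-125131838, first E-box base at -60): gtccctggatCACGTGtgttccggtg
Pes1 (chr11:3963967-3963992, at 3): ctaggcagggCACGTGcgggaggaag
Mybbp1a (chr11:72441357-72441376, at 41, window end): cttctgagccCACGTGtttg
Tsr1 (chr11:74898094-74898119, at 25): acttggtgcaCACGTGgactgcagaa
Wdr43 (chr17:71616222-71616247, at 18): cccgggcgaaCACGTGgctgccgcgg
Of these, 4 lie just after the start and Nop2 alone before it. A match is a description of letters, not of binding.

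Cells were assigned to classes by marker genes alone, so each class is a set of cells with those markers and not a proven type. Tumour cells were barcodes with the epithelial keratins Krt8 and Krt18 and the tumour suppressor transcript Cdkn2a. They numbered 678, 416 and 2331 in controls 1 to 3 and 5, 1, 1 and 0 in treated 1 to 4, so the tumour cell results rest on the controls. Their Myc level was 2320, 2508 and 2148 CPM (a gene's UMIs, which count captured transcripts, scaled to 1000000 UMIs of the class in that sample) and their Nras level 3235, 3202 and 3269. Hepatocyte-like barcodes were the reverse, with 6 in all controls and 23, 94, 136 and 17 in treated samples. Depth per sample ran from 76438139 to 181755269 UMIs in controls and from 37653600 to 47881379 in treated samples, with 7244 to 10439 cells kept. Any pair of samples shared 14 to 37 barcodes. Droplets of immune cells in controls also carried tumour RNA. Judged by keratin UMIs, it made up 1.83 to 7.78% of UMIs in control CD8 T cells, 2.13 to 6.90% in control monocytes and macrophages and 3.08 to 19.4% in control B cells, and at most 1.45% in these classes of treated samples. Judged by Myc UMIs, to which a cell's own Myc also adds, the control ranges were 4.23 to 7.33%, 3.11 to 6.66% and 5.59 to 10.5%, and the treated ranges 2.70 to 3.07%, 0.296 to 1.33% and 3.04 to 4.48%. In control 3 the keratin estimate was the higher of the 2 in all 3 classes, most of all in B cells. The keratins counted were Krt7, Krt8, Krt18 and Krt19. In B cells of control 3 Krt7 and Krt19 read 253 and 228 CPM, against 697 and 299 in its tumour cells. Krt8 and Krt18 read 338 and 337 there, against 1929 and 3044. These keratins did not keep the proportions of tumour cells, so the 19.4% is uncertain and may overstate tumour RNA.

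Tumour cells gave the 33 genes the highest share of all UMIs of any class with at least 20 cells. The share was 1.42, 1.33 and 1.49% in controls 1 to 3, a mean of 1.42% ± 0.0786 (SD, n = 3). In the same samples CD8 T cells, the next class, stood at 0.523, 0.730 and 0.677%. Control NK cells and ILC1 held 0.387, 0.410 and 0.483%, monocytes and macrophages 0.360, 0.340 and 0.401%, and neutrophils, short-lived granulocytes, 0.127, 0.111 and 0.158%. The 3 tumour values did not overlap any other class, while CD4 T cells, other T cells, B cells, monocytes and macrophages and conventional dendritic cells all lay between 0.334 and 0.437%. Hepatocyte-like barcodes of treated 1 to 3, shallow at medians of at most 1798.5 UMIs, held 0.225, 0.204 and 0.222%. Npm1 and Ncl supplied 36.6 to 40.7% and 20.2 to 22.5% of the member UMIs in tumour cells, so a share of all 33 genes is mostly theirs.

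**Figure D1:**
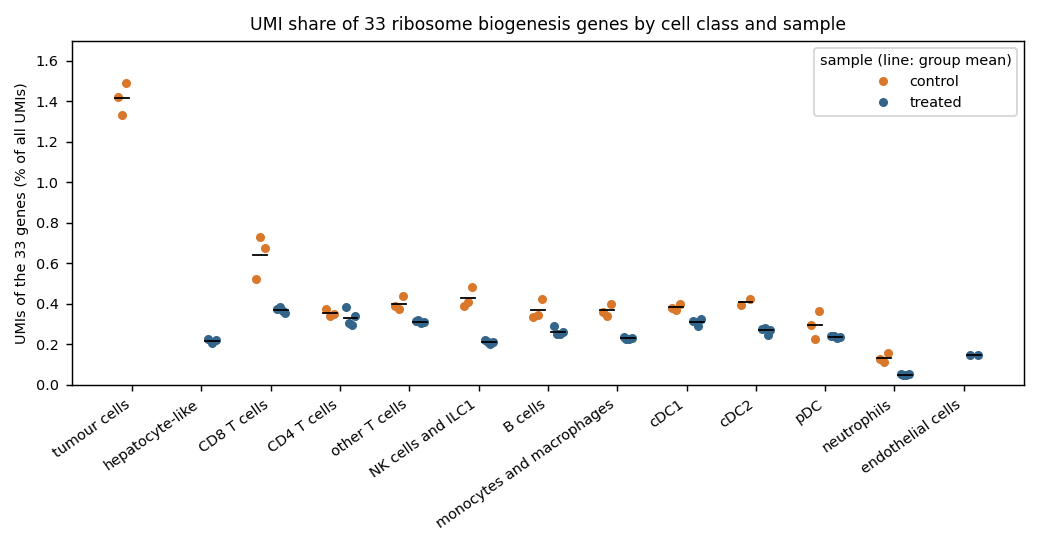
Share of all UMIs that fell on the 33 genes (vertical axis, percent) in each cell class with at least 20 cells, 1 point per sample, controls in orange and treated samples in blue, black lines for group means. Tumour cells sit at 1.33 to 1.49%, above every other class, and treated points lie below control points in most immune classes.

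All 33 genes were higher in tumour cells than in monocytes and macrophages of the same controls by edgeR's quasi-likelihood test with the sample as a block, and all 33 were higher than in CD8 T cells. Of all genes tested, 42.1% passed as higher in tumour cells in the first comparison and 35.9% in the second. The members' median log2 difference was 1.60 against monocytes and macrophages (0.03 over all genes) and 1.27 against CD8 T cells (0.08 over all genes). Every standard error given here is the log2 difference divided by the square root of the test's F value.

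The nucleolar scaffold proteins stood out most. Npm1, the histone and ribosome chaperone nucleophosmin, was at 5230.5, 5423 and 5447 CPM in tumour cells of controls 1 to 3, against 1669, 2663 and 2267 in CD8 T cells and 1008, 954 and 1161 in monocytes and macrophages. The tumour values were thus the highest in each sample, with a log2 difference of 2.47 (SE 0.08, adjusted p = 5.70e-06, edgeR's quasi-likelihood test) from monocytes and macrophages and of 1.55 (SE 0.12, adjusted p = 1.05e-11) from CD8 T cells. Npm1 has near-identical processed copies in the genome, and the labels do not say how reads shared with them were counted, so its level is uncertain. Ncl, the RNA-binding protein nucleolin, read 3199, 2690.1 and 3311 in tumour cells, 1177, 1481 and 1598 in CD8 T cells and 675, 635 and 722 in monocytes and macrophages. Nolc1, a chaperone of small nucleolar particles, read 418, 378 and 472 in tumour cells against 104, 135 and 136 in CD8 T cells, log2 2.01 (SE 0.13, adjusted p = 4.91e-13, edgeR), the largest of the 33 differences from that class. Gnl3, the GTP-binding nucleostemin, differed by log2 1.82 from monocytes and macrophages and 1.68 from CD8 T cells.

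The small nucleolar ribonucleoproteins differed by member. In the box C/D particle, which guides ribose methylation, Nop58 read 368, 359 and 371 CPM in tumour cells and 165, 232 and 198 in CD8 T cells. Its partner Nop56 read 191, 177 and 196 against 95.4, 165 and 135. The methyltransferase Fbl read 173, 162 and 183 against 132, 170.3 and 159.7, so that its tumour and CD8 ranges overlapped, and its log2 difference of 0.42 (SE 0.13, adjusted p = 0.00479, edgeR) was the smallest of the 33 in that comparison. In the box H/ACA particle, which guides pseudouridylation, the core protein Nhp2 read 776, 669 and 898 against 207, 249 and 301, log2 1.88 (SE 0.13, adjusted p = 7.62e-13). The pseudouridine synthase Dkc1 (log2 0.60) and the partners Gar1 (0.78) and Nop10 (0.83) differed less from CD8 T cells, though all 4 passed.

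RNA polymerase I subunits were low but raised. Polr1a, the largest catalytic subunit, read 80.0, 65.7 and 81.4 CPM in tumour cells, 31.6, 38.6 and 30.5 in CD8 T cells and 35.8, 36.8 and 36.9 in monocytes and macrophages. Polr1b, the other catalytic subunit, differed by log2 1.88 from monocytes and macrophages and 1.29 from CD8 T cells, and Polr1c, shared with RNA polymerase III, by 1.30 and 1.38. In tumour cells Ddx21, a helicase linked to polymerase I transcription, read 368, 342 and 367, and Mybbp1a, a nucleolar regulator of rRNA synthesis, 339, 305 and 366.

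Small subunit factors ranged widely. Nop14, an assembly factor of the small subunit processome, read 193, 185 and 205 CPM in tumour cells against 43.8, 43.7 and 46.2 in monocytes and macrophages, log2 2.22 (SE 0.06, adjusted p = 5.26e-06, edgeR). Rrp9 of the U3 particle (log2 2.04), Wdr75 (1.98), Wdr43 (1.58), the rRNA acetyltransferase Nat10 (1.45) and the late assembly factor Tsr1 (1.29) followed. The smallest differences of all 33 from monocytes and macrophages were those of Rrp12, an export factor of the small subunit (0.46, SE 0.07, adjusted p = 0.00144), and Heatr1, a processome protein (0.53, SE 0.06, adjusted p = 0.000348). Of the large subunit factors, the 3 proteins of one complex differed unequally: Wdr12 by 2.10, Bop1 by 1.19 and Pes1 by 0.83. Ddx18, a helicase (1.86), Nop16 (1.74), the rRNA methyltransferase Nop2 (1.71), Rrs1 (1.47), Ebna1bp2 (1.44) and Rrp1b (1.20) lay between.

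**Figure D2:**
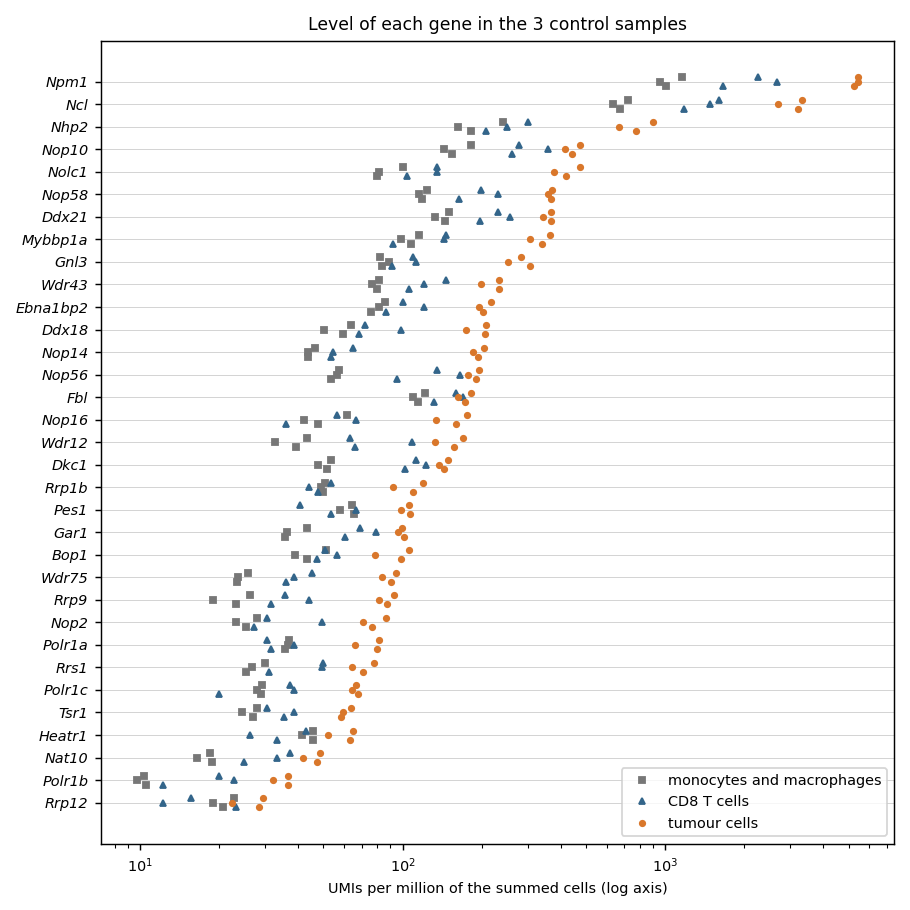
CPM (horizontal log axis) of each of the 33 genes in tumour cells, CD8 T cells and monocytes and macrophages, 1 point for each of the 3 control samples, genes ordered by their tumour cell mean. Tumour points lie to the right for nearly every gene, and Fbl shows an overlap with CD8 T cells, its lowest tumour value being 162 against a highest CD8 value of 170.3.

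Detection of proliferation genes went with the members' share. With every cell thinned to 2000 UMIs, tumour cells with at least 2 of 15 proliferation genes held 1.60, 1.62 and 1.53% in controls 1 to 3, and the other tumour cells 1.29, 1.24 and 1.32%. Control CD8 T cells showed the same order, 0.512, 0.689 and 0.616% against 0.437, 0.541 and 0.402%. Cells with at least 2 of these genes, called dividing here, were higher in all 3 controls of both classes. Tumour cells with fewer than 2 held more than dividing CD8 T cells. Counts this low can miss the genes, so cells without them are not shown to be outside division. Of tumour cells thinned to 10000 UMIs, only 41 of 444, 44 of 255 and 67 of 1889 held none. Undividing means below only that none of the 15 genes was counted. In NK cells and ILC1 the order was not the same in every control, with 12, 33 and 9 dividing cells at 0.354, 0.474 and 0.483% against 0.374, 0.324 and 0.450% in the others. In cells of the same depth with none of the 15 proliferation genes, a choice made after the data were seen, 31 of 33 members remained higher in tumour cells than in monocytes and macrophages (30.3% of genes passed) and 21 of 30 tested higher than in CD8 T cells (29.4% passed). In whole cells with no UMI of these genes, which among tumour cells are the shallow ones (68, 39 and 56 cells, median 1963.5, 2676 and 1404 UMIs), most calls were lost. There 14 of 33 members were higher than in monocytes and macrophages (12.9% of genes passed), and against CD8 T cells 4 of 19 tested were higher (22% passed): Npm1, Ncl, Nhp2 and Nop16. Dkc1 was called lower there (log2 -1.05, SE 0.42, adjusted p = 0.0344, edgeR), where 28.1% of genes were.

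Within tumour cells the members rose with Myc. Cells were thinned to 10000 UMIs each, which kept 444, 255 and 1889 cells of controls 1 to 3, and were ordered by Myc UMIs in quintiles. From the lowest to the highest quintile mean Myc went from 6.02 to 56.2 UMIs per cell in control 1, from 5.67 to 58.9 in control 2 and from 7.28 to 44.1 in control 3. The members' share went from 1.08 through 1.32, 1.47 and 1.52 to 1.65% in control 1, from 0.999 through 1.19, 1.38 and 1.45 to 1.62% in control 2, and from 1.24 through 1.41, 1.46 and 1.51 to 1.62% in control 3. Each step was upward in each sample. The step into the highest quintile was larger than the one before it in each, but it also spanned more Myc. From quintile 3 to 5 mean Myc was 18.9, 27.8 and 56.2 UMIs in control 1 and 19.96, 29.3 and 58.9 in control 2. In control 3 it was 19.4, 26.3 and 44.1. The rise per Myc UMI was thus not steeper in the last step. Without Npm1 and Ncl the lowest and highest quintiles were 0.464 and 0.633%, 0.410 and 0.623%, and 0.511 and 0.649%.

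**Figure D3:**
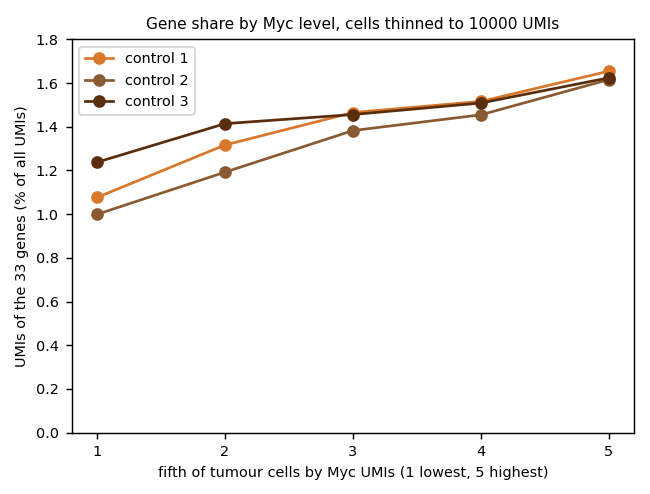
Share of all UMIs on the 33 genes (vertical axis, percent) in tumour cells grouped by Myc UMIs from the lowest to the highest quintile (horizontal axis), 1 line per control sample, every cell thinned to 10000 UMIs. All 3 lines climb, from 0.999 to 1.24% at the left to 1.62 to 1.65% at the right.

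Cells above the sample's median Myc count were then compared with the rest, with the sample as a block. Of the 33 members, 22 were higher in Myc-high cells and 0 lower by edgeR's quasi-likelihood test, where 5.58% of the 9779 genes tested passed as higher and 5.81% as lower. Of 86 ribosomal protein genes tested, 63 were higher and 0 lower. All 33 log2 differences were above 0, with a median of 0.29 against -0.01 over all genes. Polr1c (log2 0.44, SE 0.10, adjusted p = 0.00357), Npm1 (0.44, SE 0.05, adjusted p = 1.53e-06), Nolc1 (0.41, SE 0.07, adjusted p = 0.000289), Rrp9 (0.40, SE 0.09, adjusted p = 0.00324) and Gnl3 (0.40, SE 0.07, adjusted p = 0.000529) led. Rrs1 (0.06, SE 0.11) and Rrp12 (0.20, SE 0.16) did not pass, and they alone differed in direction between the 3 controls. By role, all 4 scaffold proteins and all 3 box C/D proteins passed, but 4 of 8 small subunit and 5 of 9 large subunit factors.

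These calls were sensitive. With DESeq2 9 members passed and without the sample block 3. Without control 1 the count was 12 and without control 3 14. In the 41, 44 and 67 cells with no proliferation UMI 2 of 28 tested passed. All of these were higher in Myc-high cells. The share of all genes passing under these settings is not given here. The drops are therefore not shown to be particular to the members. Myc-high cells also held more ribosomal protein UMIs (25.6, 25.9 and 24.4% against 22.4, 23.2 and 22.6%) and fewer keratin UMIs (0.495, 0.495 and 0.572% against 0.602, 0.676 and 0.637%), immune marker UMIs (0.0476, 0.0372 and 0.0363% against 0.0597, 0.0475 and 0.0407%) and hepatocyte marker UMIs (0.154, 0.126 and 0.172% against 0.235, 0.264 and 0.246%), and their part in the result was not tested.

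**Figure D4:**
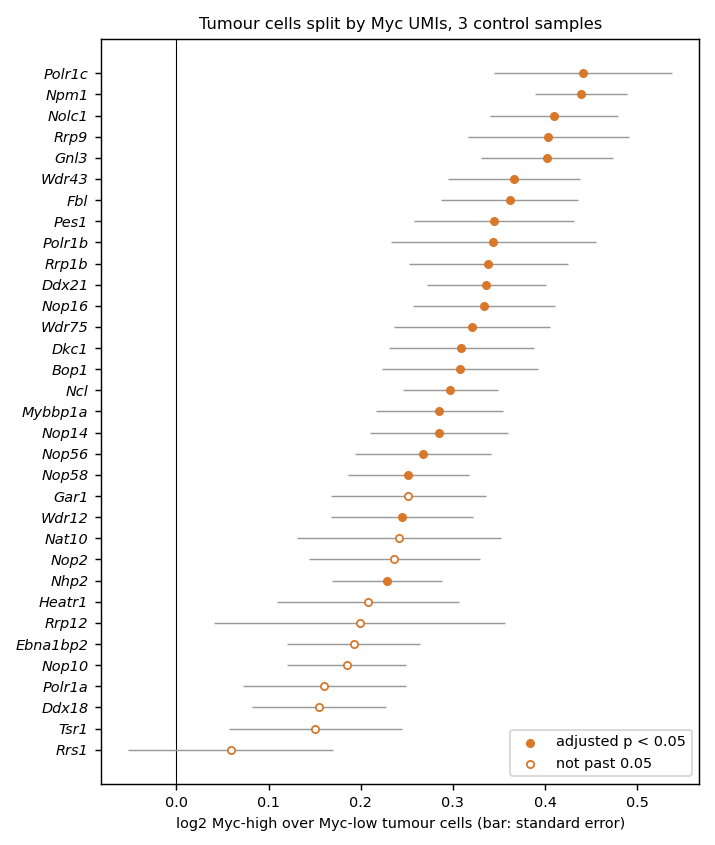
Log2 difference between Myc-high and Myc-low tumour cells of the 3 controls (horizontal axis) for each of the 33 genes, bars for the standard error, filled points for adjusted p under 0.05. Every point lies right of 0, from 0.06 for Rrs1 to 0.44 for Polr1c, and 22 are filled.

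Myc and Nras, delivered together, moved together in the tumour cells. Across the thinned cells, which share a library and a fixed depth, the correlation of the members' summed UMIs with Myc was 0.33, 0.38 and 0.32 in controls 1 to 3 (444, 255 and 1889 cells), with Nras 0.34, 0.41 and 0.33, and that of Myc with Nras 0.75, 0.82 and 0.67. Holding Nras fixed left 0.13, 0.09 and 0.14 for Myc, and holding Myc fixed left 0.14, 0.18 and 0.17 for Nras. Splitting the cells by Nras UMIs instead of Myc called 29 members. The share of all genes called under the Nras split is not given here. That count is therefore not shown to be particular to the members. Gene by gene, 29 of 33 members correlated positively with Myc in all 3 controls, against 22.6% of the 5203 genes with at least 0.2 UMIs per cell. Npm1 had the highest mean correlation (0.38), then Wdr43 (0.19), Nolc1 (0.18) and Ncl (0.18). The median over the members was 0.098, against -0.013 over all those genes, and in sparse counts such low values carry little. The link was not particular to the members. Of 85 ribosomal protein genes with as many UMIs, 81 (95.3%) correlated positively with Myc in all 3 controls, with a median of 0.162.

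Treated and control samples were compared within 6 immune classes. With all 7 samples, the low-count filter and no subtraction of tumour RNA, no member was called higher in treated samples in any of them by edgeR's quasi-likelihood test or by DESeq2, and at an unadjusted p under 0.05 the count of higher members was 2 in other T cells and 0 in each of the other classes. The shares of all genes called higher were 26.7% for CD8 T cells, 9.41% for other T cells, 20.8% for NK cells and ILC1, 11.3% in B cells, 26.7% in monocytes and macrophages and 20% in cDC1. The comparisons share the same 7 samples, so they are not independent of each other. Myc itself was lower in treated samples in each of the 6: in monocytes and macrophages 88.5, 78.0 and 143 CPM in controls against 30.9, 6.89, 15.97 and 18.5, and in CD8 T cells 98.2, 118 and 157 against 71.4, 62.8, 68.2 and 64.7. Tumour RNA in the droplets, which carries Myc, was also higher in controls, by the ranges given above.

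**Figure D5:**
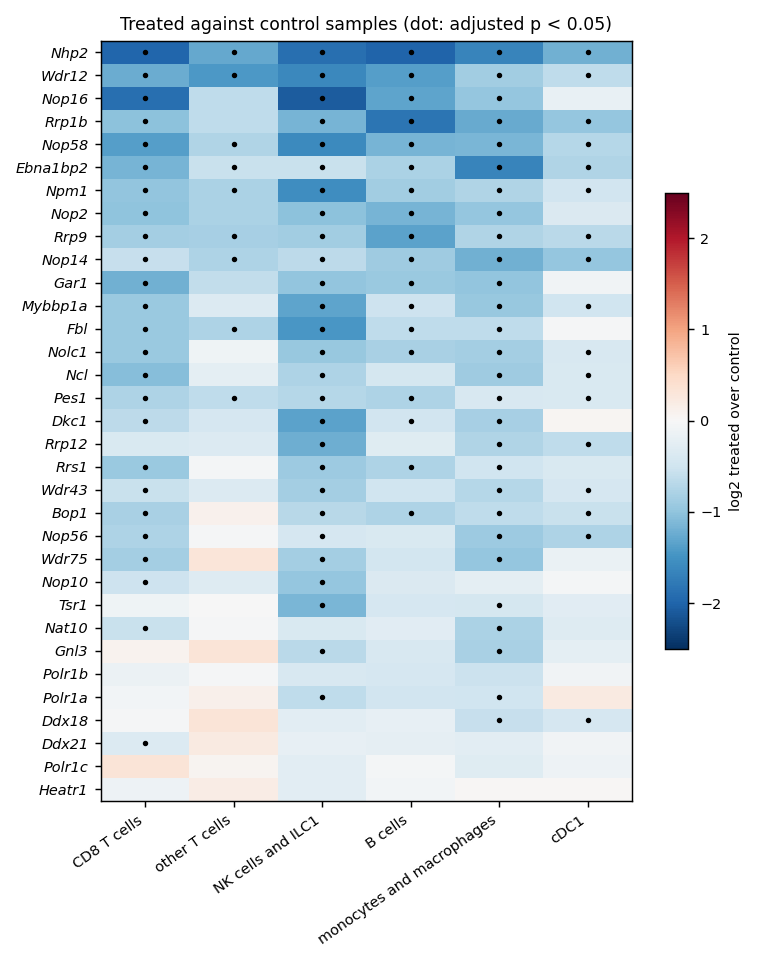
Log2 difference between treated and control samples (colour scale, blue for lower in treated) of each of the 33 genes (rows) in 6 immune classes (columns), black dots for adjusted p under 0.05. Blue cells with dots fill most of the columns for CD8 T cells, NK cells and ILC1 and monocytes and macrophages, and all dots lie on blue cells.

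In monocytes and macrophages 28 of 33 members fell, where 26.0% of genes fell, with a median log2 difference of -0.78 (0.01 over all genes). Nhp2 read 182, 163 and 242 CPM in controls and 54.3, 92.3, 55.3 and 68.8 in treated samples, log2 -1.65 (SE 0.18, adjusted p = 2.60e-05, edgeR's quasi-likelihood test). Ebna1bp2, a large subunit factor, read 76.1, 81.7 and 86.0 against 33.7, 34.4, 19.7 and 23.8, log2 -1.65 (SE 0.16, adjusted p = 9.65e-06). The groups did not overlap for either. All 9 large subunit factors and all 4 scaffold proteins fell, while Polr1b, Polr1c, Nop10, Ddx21 and Heatr1 did not pass. Of the proliferation genes, 5 of 14 tested were lower. What the class held differed between the groups: its own 9 markers summed to 2388 to 2754 CPM in controls and 5382 to 6848 in treated samples, the 6 neutrophil markers to 1872 to 2956 against 163 to 1145, and the 2 cDC2 markers to 6.31 to 9.05 against 97.0 to 146. The part of these differences in the result was not tested. With tumour RNA subtracted the count was 26 by keratins (26.2% of genes fell) and 27 by Myc (26.2%), and 14 of 18 tested in undividing cells of equal depth (26.3%).

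In CD8 T cells, the cytotoxic T cells, 25 of 33 fell, where 29.0% of genes fell, with a median of -0.82 (0.02 over all genes). Nhp2 read 207, 249 and 301 CPM in controls and 64.1, 73.9, 71.1 and 66.4 in treated samples, log2 -1.98 (SE 0.13, adjusted p = 7.19e-08, edgeR). Nop16, a large subunit factor, read 36.1, 66.7 and 56.4 against 11.4, 18.3, 12.7 and 16.2, log2 -1.88 (SE 0.22, adjusted p = 1.09e-05), and Nop58 165, 232 and 198 against 81.7, 80.3, 82.4 and 75.9. Treated values lay below all controls for these 3 genes. The polymerase I subunits, Gnl3, Heatr1, Tsr1, Rrp12 and Ddx18 did not pass. Polr1c read 19.97, 38.6 and 37.1 against 42.3, 38.9, 39.9 and 38.7, the one member whose treated samples were all above the controls, with an adjusted p of 0.187 (edgeR). It was called higher without the low-count filter (log2 0.43, adjusted p = 0.0437, where 15.9% of genes were higher) and without control 3 (0.59, adjusted p = 0.0434, where 21.5% were).

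Division differed between the groups in CD8 T cells: the proliferation genes held 0.305, 0.136 and 0.265% of UMIs in controls against 0.0116, 0.0146, 0.0163 and 0.00920%, and all 15 fell. Among CD8 T cells of equal depth with none of these genes (96, 31 and 59 control and 637, 625, 800 and 1034 treated cells), 5 members remained lower, where 6.93% of genes were: Nhp2, Nop16, Nop58, Ebna1bp2 and Ncl. The members' share in those cells was 0.433, 0.602 and 0.433% against 0.379, 0.374, 0.353 and 0.363%, a median log2 difference of -0.34 over the members. Tumour RNA subtraction left the count at 25 by either tracer (27.9 and 28.4% of genes fell). The 6 markers of NK cells and ILC1 summed to 153 to 297 CPM in control and 557 to 862 in treated CD8 T cells, and the 6 neutrophil markers to 778 to 1304 against 131 to 186, whose part was not tested. The total share of ribosomal proteins overlapped between the groups, from 22.1 to 26.2% in controls and from 23.9 to 25.4% in treated samples.

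In NK cells and ILC1, which the markers did not separate, 27 members fell, where 20.2% of genes fell, with a median of -0.86 (0.06 over all genes). Npm1 read 1251, 1541 and 1609 CPM in controls and 567, 483, 486 and 563 in treated samples, log2 -1.54 (SE 0.13, adjusted p = 8.20e-06, edgeR). Nop16 read 33.5, 29.5 and 40.3 against 8.23, 7.36, 7.78 and 9.35, log2 -2.08 (SE 0.18, adjusted p = 8.28e-06), and Fbl 94.4, 101 and 86.3 against 37.4, 36.5, 33.4 and 38.5. None of these groups overlapped. Polr1b, Polr1c, Nat10, Heatr1, Ddx21 and Ddx18 did not pass, and Polr1a did (log2 -0.63, SE 0.15, adjusted p = 0.00572). Ribosomal proteins fell too, from 23.1, 24.97 and 24.1% of UMIs to 14.6, 12.9, 12.3 and 14.6%. All 15 proliferation genes fell, and in undividing cells of equal depth 16 members were lower (7.55% of genes), with a median log2 difference of -0.80. With tumour RNA subtracted 25 were lower by either tracer (18.4 and 18.1% of genes). The class's own 6 markers summed to 2666 to 3083 CPM in controls and 4060.0 to 4416 in treated samples, and the neutrophil markers to 974 to 1568 against 120.4 to 203, whose part was not tested.

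In B cells 18 members fell, where 16.7% of genes fell, with a median of -0.51 (0.00 over all genes). Nhp2 read 119.7, 88.1 and 213 CPM in controls and 47.0, 43.4, 39.5 and 40.4 in treated samples, log2 -1.999 (SE 0.23, adjusted p = 3.04e-05, edgeR), with no overlap. Of the large subunit factors 8 of 9 fell, of the small subunit factors 2 of 8. The count depended on control 3, without which 6 fell. That sample had both the most control B cells (284, against 230 and 83 in controls 1 and 2) and the most tumour RNA in them. With keratin-based subtraction only Nhp2 and Wdr12 fell (11.3% of genes), against 14 of 32 tested with Myc-based subtraction (14.0% of genes). The keratin-based count rests on the uncertain keratin estimate of control 3. Why the count depended on control 3 was not tested. With libraries thinned to equal UMIs 8 fell. The share of all genes that fell is not given for equal UMIs or without control 3. All 15 proliferation genes fell in B cells, and 12 of the 18 members kept their call in cells with no UMI of these genes. The B cell markers summed to 4765 to 6615 CPM in controls and 7239.9 to 7811 in treated samples, and the neutrophil markers to 1133 to 2343 against 148 to 194, whose part was not tested.

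In cDC1, a conventional dendritic cell type known for cross-presentation, 17 members fell, where 20.7% of genes fell, with a median of -0.39 (0.00 over all genes). Nhp2 read 174, 157 and 235 CPM in controls against 85.2, 86.9, 84.1 and 103, log2 -1.19 (SE 0.16, adjusted p = 5.58e-05, edgeR). Nop14 read 63.8, 54.0 and 61.7 against 36.7, 41.0, 17.3 and 33.9. Both groups of values were apart, but Fbl (145, 132 and 144 against 155, 146, 147 and 147) and Nop16 (36.9, 31.3 and 48.5 against 35.6, 33.8, 38.3 and 40.9) overlapped or stood slightly above and were not called. Markers of other classes moved with the groups here: the 9 of monocytes and macrophages summed to 255 to 398 CPM in controls and 1000.4 to 1536 in treated samples, the 2 of cDC2 to 157 to 179 against 369 to 506, and the 6 of neutrophils to 731 to 1228 against 79.8 to 205. Those of cDC1 itself read 1577 to 1748 against 1798 to 2073, and the part of these markers in the result was not tested. DESeq2 called 11, keratin-based subtraction left 8 (19.9% of genes fell) and Myc-based subtraction 12 (20.4%), and single samples left out gave counts down to 11 without control 1, 10 without treated 2 and 11 without treated 3. Of the 15 proliferation genes 6 fell. In cells with no UMI of these genes 8 of 15 members still tested kept their call. The share of all genes that fell is not given for DESeq2, for samples left out or for these cells.

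Other T cells, in which UMIs of neither or of both coreceptors were counted, showed the fewest calls. Low counts can miss a coreceptor, so this class can hold CD4 and CD8 T cells. In it 9 members fell, where 10.6% of genes fell, with a median of -0.33 (0.04 over all genes). Wdr12 read 53.6, 34.7 and 71.1 CPM in controls and 18.7, 22.7, 21.2 and 20.7 in treated samples, log2 -1.43 (SE 0.20, adjusted p = 0.000515, edgeR), and Npm1 1192, 1420.0 and 1497 against 848, 822, 784 and 906. Treated values were below the controls for both. Gnl3, Ddx21 and Ddx18 stood above the controls in all treated samples without passing. With tumour RNA subtracted, Gnl3 (log2 0.58, adjusted p = 0.0380 by keratins and 0.0287 by Myc, edgeR) and Ddx18 (0.54, adjusted p = 0.0246, and 0.52, adjusted p = 0.0374) were called higher, where 8% (keratins) and 7.50% (Myc) of genes were called higher, and 5 and 6 members were called lower, where 8.45 and 8.96% of genes were. Markers of NK cells and ILC1 summed to 509 to 866 CPM in controls and 1236 to 1817 in treated samples, and neutrophil markers to 1275 to 1691 against 158 to 298, whose part was not tested. Without control 3 the count of falls was 4, and in cells with no proliferation UMI 3. The share of all genes that fell is not given for either setting. Of the 15 proliferation genes 14 fell, and their part in the result was not tested.

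For the remaining immune classes only shares were compared, and no gene was tested there, although neutrophils had 1389 to 1878 control and 287 to 322 treated cells. Neutrophils held 0.127, 0.111 and 0.158% in controls and 0.0519, 0.0459, 0.0499 and 0.0517% in treated samples, which became 0.0757, 0.0693 and 0.0660% against 0.0510, 0.0443, 0.0472 and 0.0517% after Myc-based subtraction. The treated samples lay below the controls in both, but after keratin-based subtraction the groups overlapped, at 0.0569, 0.0676 and 0.0338% against 0.0478, 0.0419, 0.0472 and 0.0504%. CD4 T cells (0.374, 0.341 and 0.349% against 0.383, 0.306, 0.295 and 0.339%) and plasmacytoid dendritic cells (0.292, 0.224 and 0.362% against 0.240, 0.239, 0.232 and 0.237%) overlapped. In cDC2, the other conventional dendritic cells, controls 1 and 3 held 0.396 and 0.424% (control 2 had 19 cells) and treated samples 0.277, 0.282, 0.244 and 0.270%. The groups of cDC2 were apart, and stayed apart after keratin-based subtraction (0.354 and 0.340% against 0.275, 0.282, 0.243 and 0.270%) and after Myc-based subtraction (0.354 and 0.358% against 0.266, 0.267, 0.235 and 0.258%).

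The remaining ribosome biogenesis genes on a fixed list of 75, of which 74 were found, moved in the same directions with smaller medians. In tumour cells 70 were higher and 1 lower than in monocytes and macrophages (median log2 1.08), and 58 higher and 2 lower than in CD8 T cells (0.93). Lyar, a nucleolar zinc finger protein, stood at a mean of 498 CPM in tumour cells and 89.1 in monocytes and macrophages, log2 2.58 (SE 0.07, adjusted p = 5.26e-06, edgeR). Between treated and control samples 50 fell and 0 rose for CD8 T cells, 41 and 3 for NK cells and ILC1, 40 and 2 of 72 tested in monocytes and macrophages, 18 and 0 in B cells, 21 and 0 of 72 in cDC1, and 10 and 1 in other T cells. Mrto4, a large subunit factor, was among the named genes with the largest falls in each class, from log2 -0.84 for cDC1 to -2.20 in NK cells and ILC1. Ubtf, the polymerase I upstream binding factor, went the other way, higher by log2 0.45 for other T cells, 0.35 for NK cells and ILC1 and 0.41 for monocytes and macrophages. In Myc-high tumour cells 20 of the 74 were higher and 0 lower.

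Of 15 other MYC targets, all were higher in tumour cells than in monocytes and macrophages (median log2 1.76) and 14 higher than in CD8 T cells (1.12), and 8 were higher in Myc-high tumour cells. In treated samples all 15 fell among CD8 T cells (median -1.68), as did 14 among NK cells and ILC1 (-1.23). Eif5a, a translation factor, fell from a mean of 962 to 226 CPM in CD8 T cells, log2 -2.19 (SE 0.13, adjusted p = 3.25e-08, edgeR). Srm, spermidine synthase, fell from 66.9 to 6.43 in NK cells and ILC1, log2 -3.32 (SE 0.27, adjusted p = 5.11e-06). Both genes fell further than any of the 33 members in the same class.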

How the data were processed

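Gene-by-barcode matrices of raw UMI counts were used as the authors deposited them, 1 per sample, from 10x 3′ v3.1 libraries per the labels. Per the submitters' processing notes, bcl2fastq 5.0.1 and Cell Ranger 7.0.0 were used. Neither the build nor the annotation used for counting is given in the sources used here. The members and gene lists were chosen with earlier results of these data known.

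Barcodes with at least 500 UMIs, 200 genes and under 20% mitochondrial UMIs were kept and sorted by marker genes per 10000 UMIs, and those passing gates of several classes (248 to 655 per sample) were left out. No doublet caller was run. Counts were summed per sample and class (at least 20 cells). The main test was edgeR's quasi-likelihood test (edgeR 4.0.16, R 4.3.3) with TMM scaling, edgeR's filter on low counts and Benjamini-Hochberg adjustment over all genes tested, and a gene was called at adjusted p under 0.05. All 33 members passed the filter in all 9 comparisons. The fit was also run on simulated counts with known changes. These were drawn independently for each sample with a fixed dispersion and no sample effect, so they do not show how the fit performs on these data. Tumour RNA was subtracted by scaling the tumour profile to each class's keratin or Myc UMIs. All 33 members are reported, and of the other lists up to 3 called genes per comparison and direction with the largest change, at least 20 UMIs per 1000000 and groups not overlapping. Alternatives were DESeq2 1.42.0, RLE scaling, no low-count filter, stricter cells and gates, equal depth, undividing cells, the sample as a block or not, and each sample left out. Shares of UMIs were described without a test.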

Additional observations from a re-analysis of the deposited data

How the results depend on the processing

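Over all alternatives, counts of members called stayed within 1.5 times the reported count in 114 cases and moved in 24, shares stayed within 1 SD in 105, moved in 21 and turned direction in 4, and called members kept their call in 2726 cases, lost it in 374 and turned in 12. Leaving out 1 sample gave 23 to 25 members called in CD8 T cells (without control 3 one of them, Polr1c, higher), 4 to 10 in other T cells, 24 to 27 for NK cells and ILC1, 6 to 22 in B cells, 26 to 30 for monocytes and macrophages, 10 to 15 in cDC1, 33 in each case for tumour cells against monocytes and macrophages, 32 to 33 against CD8 T cells and 12 to 25 for Myc-high cells. Replicate numbers did not pair the samples (correlations of same-numbered deviations from -0.11 to 0.20). With the replicate block the treated counts were 24, 8, 27, 16, 27 and 14 for CD8 T cells, other T cells, NK cells and ILC1, B cells, monocytes and macrophages, and cDC1. With no replicate block tumour comparisons kept 33 and 33, and Myc-high cells had 3. In cells with no UMI of the proliferation genes counts were 5 in CD8 T cells, 3 in other T cells, 8 in cDC1, 14 in tumour cells against monocytes and macrophages, 5 of 19 tested against CD8 T cells (4 higher and Dkc1 lower), and 2 for Myc-high cells. Of the members called in all cells, 20 of 27 for NK cells and ILC1, 12 of 18 in B cells and 25 of 28 for monocytes and macrophages kept their call under that rule. That rule keeps shallow tumour cells, with medians of 1963.5, 2676 and 1404 UMIs. There Gar1 (-0.0317) and Heatr1 (-0.041) against monocytes and macrophages, Nop58 (-0.071), Nop56 (-0.19), Dkc1 (-1.05) and Wdr43 (-0.32) against CD8 T cells, and Gar1 (0.046) and Ddx21 (0.043) in treated CD8 T cells turned direction. At equal depth, an alternative chosen after seeing the data, the counts were 5, 16 and 14 for CD8 T cells, for NK cells and ILC1 and for monocytes and macrophages, 31 and 21 for tumour cells, with Ddx21 (0.044) in CD8 T cells and Rrp12 (0.14) for NK cells and ILC1 turned. Keratin-based subtraction left 2 calls in B cells, with Mybbp1a (0.096) and Nolc1 (0.18) turned, and 8 in cDC1. The keratin-based B cell values, here and below, rest on the uncertain keratin estimate of control 3. Libraries of equal UMIs gave 8 in B cells and 9 in cDC1, and DESeq2 11 in cDC1 and 9 for Myc-high cells. As log2 treated over control, the members' share in undividing cells was -0.41 in CD8 T cells and -0.89 for NK cells and ILC1. Keratin-based subtraction gave 0.20 in CD4 T cells, 0.081 in B cells and 0.032 in plasmacytoid dendritic cells, which turned direction, and -0.16 in other T cells, -0.84 for NK cells and ILC1, -0.49 for monocytes and macrophages, -0.12 in cDC1, -0.38 in cDC2 and -0.12 in neutrophils. Myc-based subtraction, added after seeing the data, gave 0.079 in CD4 T cells (turned), -0.22, -0.87, -0.34, -0.52, -0.20, -0.47, -0.030 and -0.54 in other T cells, NK cells and ILC1, B cells, monocytes and macrophages, cDC1, cDC2, plasmacytoid dendritic cells and neutrophils. Without mitochondrial and ribosomal protein UMIs it was -0.48 in other T cells and -1.21 for NK cells and ILC1, and without Npm1 and Ncl -0.23, -0.87 and -1.12 in other T cells, NK cells and ILC1 and neutrophils. Single samples left out gave -0.93 to -0.69 in CD8 T cells, -0.18 to -0.06 in CD4 T cells, -0.41 to -0.30 in other T cells, -1.08 to -0.92 for NK cells and ILC1, -0.55 to -0.38 in B cells, -0.73 to -0.61 for monocytes and macrophages, -0.32 to -0.27 in cDC1, -0.66 to -0.56 in cDC2, -0.46 to -0.11 in plasmacytoid dendritic cells and -1.51 to -1.25 in neutrophils. Where no share of all genes is given for a setting, a change in the count of members is not shown to be particular to them. Causes of these shifts were not tested.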

Other observations

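The partners and antagonists of MYC were described as levels. Max, the obligate partner, read 50.03, 50.4 and 49.1 CPM in control tumour cells, near the 58.9, 64.5 and 54.1 of monocytes and macrophages. In CD8 T cells Max read 48.8, 43.9 and 55.7 in controls and 74.8, 80.0, 82.9 and 77.6 in treated samples. Treated samples also stood above the controls for Max in other T cells and B cells. The groups overlapped in NK cells and ILC1, monocytes and macrophages and cDC1. Mxi1, an antagonist that competes for MAX, read 103, 114 and 92.3 in tumour cells against 22.7, 26.3 and 29.7 in CD8 T cells and 102, 107 and 79.0 in monocytes and macrophages. In NK cells and ILC1 the antagonist Mxd4 read 213, 186 and 163 in controls and 315, 337, 345 and 301 in treated samples, and Mnt 16.7, 30.1 and 30.7 against 48.5, 52.6, 53.3 and 44.7. The treated samples stood above the controls for both genes. In CD8 T cells Mxd4 (93.2, 123 and 64.6 against 162, 159, 161 and 162) and Mga (72.7, 47.4 and 58.7 against 114, 131, 136 and 119) were higher too, also without overlap. Mxd3, an antagonist expressed in dividing cells, went the other way in CD8 T cells, from 26.1, 15.8 and 20.8 to 0.229, 0.278, 0.721 and 0.662. In monocytes and macrophages antagonists went both ways: Mxi1 read 102, 107 and 79.0 in controls against 34.6, 26.2, 41.8 and 50.3 in treated samples and Mxd1 93.5, 138 and 95.2 against 83.3, 67.5, 62.7 and 74.1, while Mxd4 read 45.5, 39.5 and 44.7 against 74.0, 85.4, 81.1 and 63.5. In B cells Mxd1 was lower as well (53.9, 52.1 and 45.1 against 34.1, 27.6, 29.0 and 22.4). Mxd1 was higher in treated CD8 T cells (54.4, 54.4 and 54.2 against 124, 94.5, 120 and 84.9), without overlap. It was also higher without overlap in CD4 T cells, other T cells, cDC1 and neutrophils. Its groups overlapped in NK cells and ILC1, cDC2 and plasmacytoid dendritic cells. These levels are descriptions with no test.

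The few tumour-gated barcodes of treated samples gave the 33 genes 0.534% (5 cells, 290301 UMIs, exact 95% binomial interval 0.508 to 0.561%), 1.06% (1 cell, 0.875 to 1.27%) and 0.422% (1 cell, 0.386 to 0.459%) of UMIs in treated 1 to 3. These barcodes held 255, 465 and 282 CPM of Myc and 627, 1395 and 1467 of Nras, against 2148 to 2508 and 3202 to 3269 in control tumour cells. All 3 shares lie below the control tumour cells, and the intervals cover counting error only.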
